A study of Homo sapiens with 6 samples.

Results

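TIMP3 and the genes that work with it were examined by RNA-seq in a prexasertib-resistant ovarian cancer line and its parent. The set was fixed by name and holds 10 genes, of which 9 were among the 12308 genes of the expression table: the inhibitors TIMP3, TIMP1 and TIMP2, the matrix metalloproteases MMP1, MMP14 and MMP15, and the membrane-bound sheddases ADAM9, ADAM10 and ADAM17. MMP2, the remaining gene, was not analyzed here. TIMP3 was chosen by its lower values in the resistant line, so its difference between the lines is given as a description with no test. The other 8 genes were named for their family, with earlier results of these data already known.

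Tissue inhibitors of metalloproteases (TIMPs) are secreted proteins that plug the zinc-containing active site of a metalloprotease. Matrix metalloproteases (MMPs) cut collagens and other matrix proteins, while ADAM proteases cut the outer part of membrane proteins, a step called shedding that frees growth factors, cytokines and receptors. TIMP3 differs from its relatives in binding tightly to the matrix and in inhibiting ADAM17 and several ADAMTS enzymes as well as MMPs, whereas TIMP2 also takes part, with MMP14, in activating the gelatinase MMP2.

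The parent was OVCAR5, an ovarian cancer line that the study describes as high-grade serous with wild-type BRCA genes and no p53. OVCAR5R was derived from it by growth in rising concentrations of Prex, an inhibitor of the checkpoint kinase CHK1 (CHK1i), up to 3 µM over 3 to 4 months. It was then kept in 2 µM Prex, and was grown free of the drug for at least 4 days before use, so neither line was under the drug when it was sampled. Each line gave 3 libraries of total RNA (replicates 1, 2 and 3), all grown in the same insulin-containing medium. OVCAR5R is a single derived line, so what goes with resistance cannot be told apart from other changes during the months of selection. The sources used here do not say whether it is 1 clone.

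Depth, in estimated reads × 1e6, was 35.8 to 41.3 in OVCAR5 and 50.3 to 55.1 in OVCAR5R, so every resistant library was the deeper. OVCAR5 replicate 2 stood apart from the other 5 libraries. On the first principal component, which held 45.5% of the variance, it lay at 72.0 and the others between -34.6 and 10.6. Its summed level of 6 epithelial markers was 17308, against 2388 to 4816 in the others. Epithelial keratins KRT8 and KRT18 were high throughout (at least 1031 and 1108). KRT7 read 85.8 to 939 and CLDN4 68.6 to 464 over all libraries, while EPCAM and KRT19 were low outside OVCAR5 replicate 2. EPCAM read 597 in OVCAR5 replicate 2 and 11.9 to 31.7 in the other libraries. KRT19 read 1341 in that replicate and 3.09 to 10.7 in the others, and CDH1 was not analyzed here. Of the markers of serous ovarian tissue, PAX8 stood at 4.38 to 11.4 while WT1 did not pass 0.727 in any library. Of the markers of other cell types, 2 of 9 for fibroblasts were analyzed (COL1A1 and PDGFRB, summing to 1.77 to 15.3 in OVCAR5 and 6.95 to 9.99 in OVCAR5R), 0 of 5 for endothelium, and 2 of 6 for leukocytes (CD68 and CD14, summing to 56.5 to 71.8 and 74.4 to 76.1). The part of these markers in the results was not tested. Every level below is in the normalized units of the table, described by the study as quartile normalized, unless it is given per kb of exon.

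The window upstream of TIMP3 is shown because the results turn on this gene. TIMP3 lies on chromosome 22, plus strand, at 32801701 to 32863043 of GRCh38 in GENCODE 29. The 250 bases at chr22:32801455-32801704 (plus strand, RefSeq, GRCh38.p14) are printed 5′ to 3′, with capitals marking the GC box GGGCGG and its reverse complement CCGCCC, the motif bound by Sp1-type factors.
TIMP3 upstream window: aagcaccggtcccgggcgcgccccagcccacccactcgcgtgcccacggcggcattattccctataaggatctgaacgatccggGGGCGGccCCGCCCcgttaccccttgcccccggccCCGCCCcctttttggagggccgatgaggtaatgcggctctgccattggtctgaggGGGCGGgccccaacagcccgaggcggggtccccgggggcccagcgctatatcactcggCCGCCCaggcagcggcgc
This window held 5 GC boxes on the 2 strands together, 26 CG dinucleotides and 72.4% G or C. Of 35116 windows of the same length in the RefSeq table, 42.6% held a GC box at all, 4.15% held at least 5, and 80.4% had fewer CG dinucleotides (median 11). The window of TIMP1, also in the table, held 2 GC boxes and 12 CG dinucleotides, a CG count above that of 51.5% of windows. It spans 47582186 to 47582435 of chromosome X, whereas GENCODE 29 starts TIMP1 at 47582313. The TIMP1 window thus reaches farther into its annotated gene than the TIMP3 window does, and the windows are not strictly alike. A GC box contains a CG by its spelling, so these counts are linked. They describe the sequence, and neither methylation nor factor binding was measured here.

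TIMP3 mRNA was about 7 times lower in OVCAR5R than in OVCAR5. The 3 OVCAR5 libraries read 90.2, 83.4 and 131, and the 3 OVCAR5R libraries 10.2, 13.2 and 18.6. All 3 resistant libraries lay below all 3 parental ones, and the lowest parental value was 4.49 times the highest resistant one. The parental mean was 101 ± 25.5 and the resistant mean 14 ± 4.24 (SD, n = 3 each), a ratio of 7.25. On the log2(value + 1) scale OVCAR5R differed by -2.78 with a standard error of 0.28. These values rest on 2880 to 5156 estimated reads per parental library and 540 to 996 per resistant library. TIMP3 therefore remained detectable in every OVCAR5R library.

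OVCAR5 replicate 2, the library that stood apart, did not set the size of the TIMP3 difference, which was -2.91 without it. Its TIMP3 level of 83.4 was the lowest of the parental values and the nearest to OVCAR5R. In a bulk library, fewer cells with TIMP3 RNA and less TIMP3 RNA per cell cannot be told apart. TIMP3 also lies inside SYN3, a neuronal synapsin gene on the opposite strand (32512552 to 33058372) that was not analyzed here. Whether counting used the strand is not given in the sources used here, so reads of TIMP3 and SYN3 cannot be separated.

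**Figure D1:**
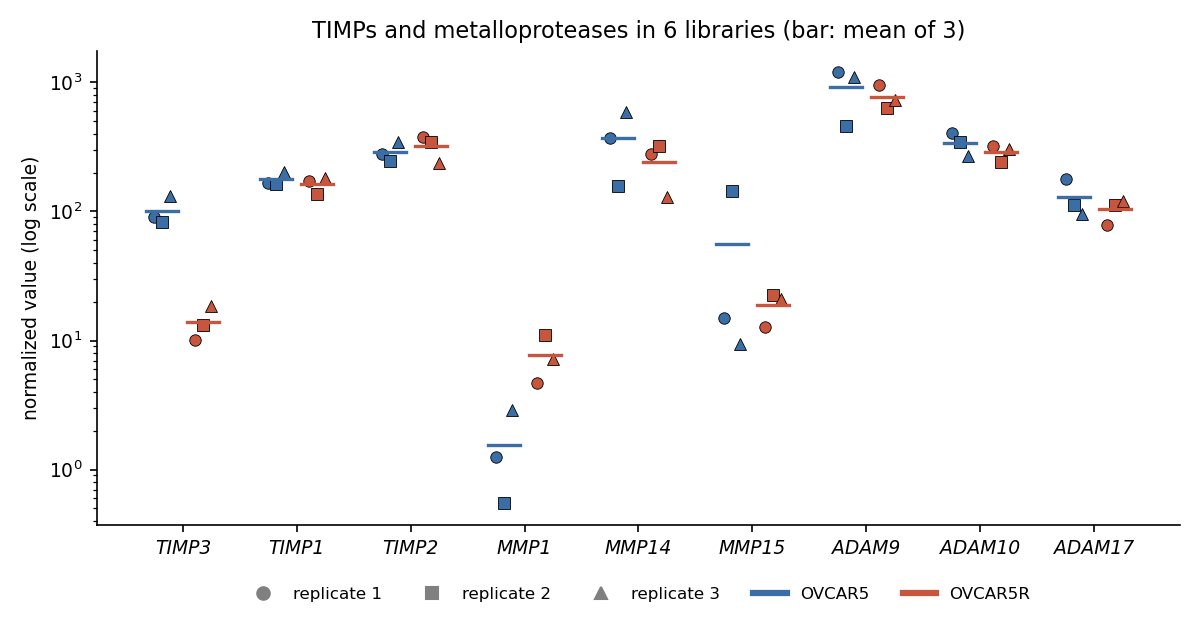
Normalized value (vertical log axis) of each gene in each of the 6 libraries, OVCAR5 in blue and OVCAR5R in red; marker shapes are the replicates and the horizontal bar is the mean of 3. TIMP3 (83.4 to 131 against 10.2 to 18.6) and MMP1 (0.550 to 2.89 against 4.69 to 11.1) are the genes whose libraries do not overlap between the lines.

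The other 2 TIMPs stayed near their parental levels by mean. TIMP1, a soluble inhibitor that acts on most secreted MMPs and on ADAM10, read 167, 164 and 203 in OVCAR5 and 171, 136 and 182 in OVCAR5R. Its libraries overlapped, and the log2 difference was -0.13 (SE 0.20, limma adjusted p = 0.858). TIMP2 read 278, 246 and 344 in OVCAR5 and 379, 345 and 239 in OVCAR5R. The lowest TIMP2 value of all belonged to OVCAR5R replicate 3, although the other resistant libraries held the highest, and the log2 difference was 0.14 (SE 0.25, limma adjusted p = 0.882). A difference of that size was smaller than its standard error for both genes.

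Divided by exon length, TIMP3 supplied a small part of the TIMP mRNA in the parent and less in the resistant line. Of the summed per-kb level of TIMP1, TIMP2 and TIMP3, it made up 11%, 10.8% and 12.8% in the OVCAR5 libraries and 1.23%, 1.89% and 2.45% in the OVCAR5R libraries. TIMP1 was the largest share in every library, with a parental mean of 61.3% ± 1.87 and a resistant mean of 63.7% ± 7.17 (SD, n = 3 each). TIMP2 followed with 27.1% ± 1.03 and 34.5% ± 7.60, the latter spread over 25.8% to 40.2%. The TIMP3 share repeats the difference by which the gene was chosen and is no separate result. With the longest transcript as the length, its mean share was 8.27% in OVCAR5 and 1.28% in OVCAR5R.

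**Figure D2:**
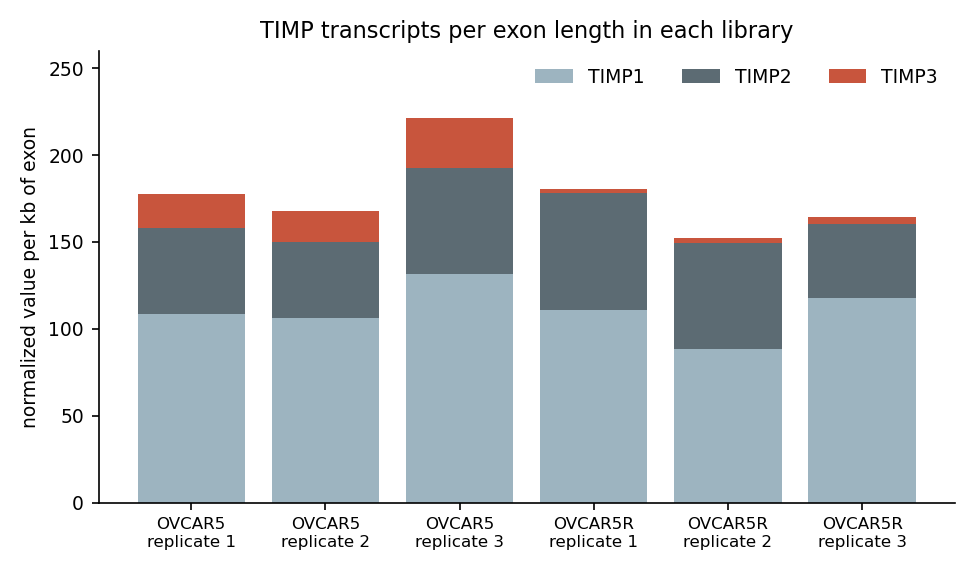
Normalized value per kb of exon of TIMP1, TIMP2 and TIMP3, stacked, one bar for each of the 6 libraries. TIMP3 (top, red) takes 10.8% to 12.8% of each OVCAR5 bar and 1.23% to 2.45% of each OVCAR5R bar, while TIMP1 (bottom) is the largest part of all 6.

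Of the 8 genes beside TIMP3, 0 passed the test across all genes (limma, Benjamini-Hochberg adjusted p under 0.05), where 14 of 11766 genes tested, or 0.119%, did. MMP1 alone had an unadjusted p under 0.05, a level that 10.4% of all genes tested reached. By mean, 6 of the 8 were lower in OVCAR5R and 2 were higher, beside a median log2 difference of -0.01 over all genes. All 9 genes of the set passed the filter on low values. Among them the libraries of the lines did not overlap for TIMP3 and MMP1, against 16.6% of all genes tested; for TIMP3 nothing is read from this, since it was chosen on the same values.

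MMP1, the interstitial collagenase that opens fibrillar collagen, was scarce in OVCAR5 and higher in OVCAR5R by mean. It read 1.24, 0.550 and 2.89 in OVCAR5 and 4.69, 11.1 and 7.23 in OVCAR5R. Each resistant value exceeded each parental one, by 1.62 times at the closest pair. The means, 1.56 ± 1.2 and 7.66 ± 3.20 (SD, n = 3 each), differed 4.91 times, and the log2 difference was 1.80 with a standard error of 0.44. It did not pass the test over all genes (limma adjusted p = 0.270). Depth limits this gene most, since the parental values came from 51, 19 and 114 estimated reads. Without OVCAR5 replicate 2, its lowest library, the difference was 1.49.

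The membrane-anchored MMPs varied more within OVCAR5 than between the lines. MMP14, a cell-surface collagenase that also activates MMP2, read 370, 157 and 586 in OVCAR5 and 280, 321 and 129 in OVCAR5R. The lines overlapped, and the log2 difference was -0.52 (SE 0.51, limma adjusted p = 0.765). MMP15, a relative of MMP14, read 14.9, 144 and 9.38 in OVCAR5 and 12.7, 22.6 and 21.0 in OVCAR5R. Its high value was OVCAR5 replicate 2, so that the highest parental library held 15.3 times the lowest. The log2 difference of -0.58 (SE 0.87, limma adjusted p = 0.852) turned to 0.58 without that library. MMP14 was lowest among the parental libraries in the same replicate, and its difference was -1.04 without it, -0.09 without OVCAR5 replicate 3 and -0.11 without OVCAR5R replicate 3. The high epithelial marker sum of that library stands beside both values, and its part in them was not tested.

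The sheddases did not differ beyond their spread. ADAM17, which releases TNF and the EGFR ligands and is the classic ADAM target of TIMP3, read 179, 112 and 95.3 in OVCAR5 and 78.4, 113 and 120 in OVCAR5R, a log2 difference of -0.28 (SE 0.29, limma adjusted p = 0.774) that was -0.02 without OVCAR5 replicate 1 and -0.09 without OVCAR5R replicate 1. ADAM10, the main sheddase of Notch receptors and cadherins, read 405, 349 and 268 in OVCAR5 and 321, 243 and 306 in OVCAR5R, a log2 difference of -0.22 (SE 0.23, limma adjusted p = 0.772). Both genes overlapped widely between the lines.

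ADAM9, a broadly expressed sheddase, was the most abundant of the proteases. It read 1199, 457 and 1097 in OVCAR5 and 949, 631 and 727 in OVCAR5R, with the lowest of all in OVCAR5 replicate 2. The log2 difference was -0.16 (SE 0.38, limma adjusted p = 0.920), and its direction depended on the libraries used. It was -0.60 without OVCAR5 replicate 2, 0.10 without OVCAR5 replicate 1 and 0.03 without OVCAR5 replicate 3.

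**Figure D3:**
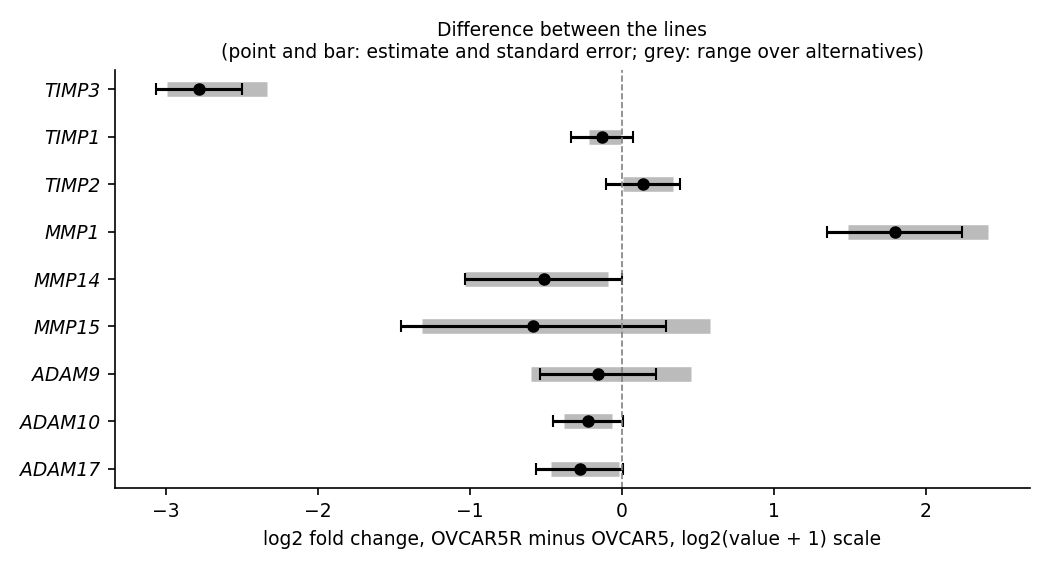
Log2 difference, OVCAR5R minus OVCAR5, of each gene on the log2(value + 1) scale; the point and thin bar are the estimate and its standard error, the grey band the range over the alternatives run, and the dashed line 0. TIMP3 at -2.78 (chosen for its difference) and MMP1 at 1.80 lie farthest from 0, the others span -0.58 to 0.14, and the bands of MMP15 and ADAM9 cross 0.

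Per kb of exon, TIMP3 moved from the middle of the set to its end. In OVCAR5 the order was led by ADAM9 (133 ± 58.2) and TIMP1 (116 ± 14), whose libraries overlapped. MMP14 (83.1 ± 48.0) and TIMP2 (51.3 ± 8.87) came next, and they too overlapped. TIMP3 was 5th at 22 ± 5.55, not separable from ADAM10 at 21.1 ± 4.25. MMP15 (12.7 ± 17.2), ADAM17 (12.0 ± 4.11) and MMP1 (0.792 ± 0.610) closed the order, all as SD over n = 3.

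In OVCAR5R, ADAM9 (111 ± 23.6) and TIMP1 (106 ± 15.5) again led, before TIMP2 (57.0 ± 13) and MMP14 (54.6 ± 22.7). ADAM10 followed at 17.9 ± 2.56 and ADAM17 at 9.67 ± 2.08. The last 3 places went to MMP15 (4.25 ± 1.21), MMP1 (3.89 ± 1.63) and TIMP3 (3.04 ± 0.922), whose libraries overlapped. MMP1 and TIMP3, far apart in the parent, thus had per-kb levels of 2.38 to 5.61 and 2.21 to 4.03 in the resistant line. With the longest transcript as the length, TIMP3 was 6th in OVCAR5 and still 9th in OVCAR5R.

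The genes with profiles most like that of TIMP3 over the 6 libraries were FST, SLC37A2, FAM109B, AKR1B10 and DUSP4. Likeness was the root mean square difference of log2 values after each gene was centred on its own mean, among 11765 other genes. It ranged from 0.456 for FST to 0.517 for DUSP4, beside a median of 1.46 over all genes. FST, which encodes the activin-binding protein follistatin, read 18.8, 19.4 and 25.8 in OVCAR5 and 2.85, 6.19 and 3.76 in OVCAR5R. DUSP4, a phosphatase of MAP kinases, read 136, 96.0 and 80.1 in OVCAR5 and 21.1, 14.8 and 18.9 in OVCAR5R. Any gene lower in OVCAR5R by a like amount scores well on this measure, which has only 6 points, and since the TIMP3 values that chose the gene enter it, it is a description.

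Genes around TIMP3 on chromosome 22 were also lower in OVCAR5R by median, but by much less. Within 5 Mb on each side, 85 tested genes had a median log2 difference of -0.40, beside -0.01 over all genes tested. By mean 64 of them were lower, beside 5975 of 11766 genes tested. The test called 0 of them, beside 0.119% of all genes. Single genes ran from -2.37 for APOL3 to 1.48 for SELENOM. The median was -0.19 for the 50 genes before TIMP3 and -0.65 for the 35 after it, where 33 were lower by mean. Set against each OVCAR5 and OVCAR5R library's own neighbour median, the TIMP3 difference was -2.34. TIMP3 was chosen by the same values, so its place below its neighbours is a description.

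The resistant libraries were unequal in this region. Relative to the parental mean, the neighbour medians were -0.68, -0.46 and -0.18 in OVCAR5R replicates 1, 2 and 3, and within 0.04 of 0 in the parental libraries. The nearest genes in the table were FBXO7, 302.9 kb before TIMP3, and HMGXB4, 2394 kb after it. FBXO7, a subunit of a ubiquitin ligase, read 66.8, 82.3 and 78.4 in OVCAR5 and 43.0, 48.9 and 74.0 in OVCAR5R, a log2 difference of -0.48 (SE 0.25, limma adjusted p = 0.537). HMGXB4 had a difference of -0.65 (SE 0.36, limma adjusted p = 0.572). DNA copy number was not measured here, and its part in the TIMP3 values was not tested.

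**Figure D4:**
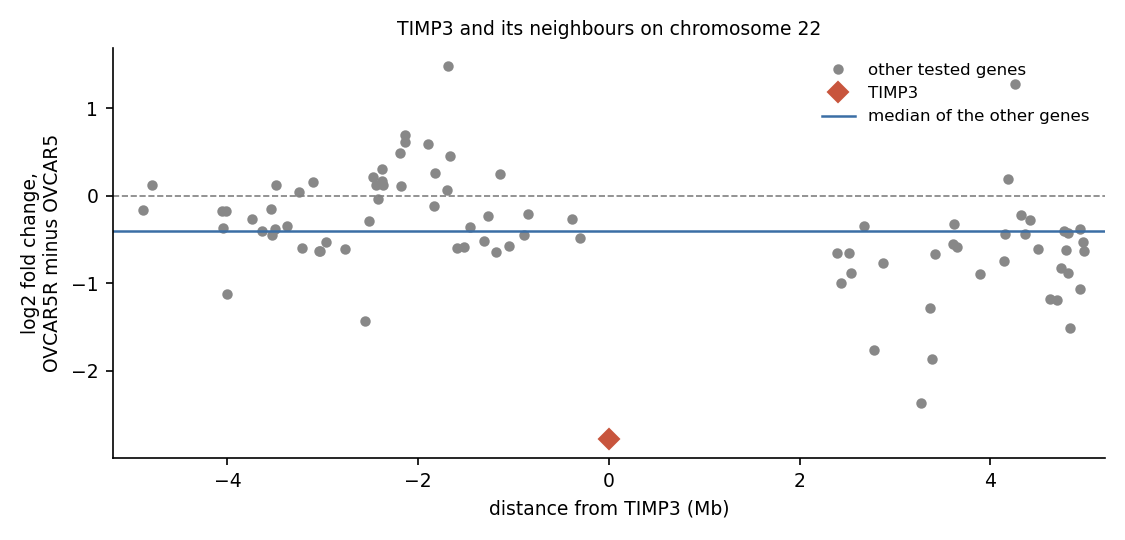
Log2 difference, OVCAR5R minus OVCAR5, of 85 tested genes (grey) by distance from TIMP3 in Mb, negative before the gene, with TIMP3 as a red diamond, their median of -0.40 as a blue line and 0 dashed. TIMP3 at -2.78 (chosen for its difference) lies below all its neighbours, and most genes after it lie below the blue line.

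Around the other members the neighbour median was lowest at ADAM9 and MMP15, but not every OVCAR5R library was shifted there. The 40 tested genes within 5 Mb of ADAM9 had a median of -0.62, with OVCAR5R replicates at -0.07, -0.91 and -0.82, and relative to them ADAM9 itself was 0.46 higher in OVCAR5R. The 44 genes around MMP15 had a median of -0.33, with -0.93 in OVCAR5R replicate 3 alone. OVCAR5R replicates 1 and 2 stood at -0.08 and 0.05 there, within the -0.26 to 0.21 of the OVCAR5 libraries. For TIMP1, TIMP2, MMP1, MMP14, ADAM10 and ADAM17 the medians lay between -0.10 and 0.12.

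Related genes were taken from lists of inhibitors, proteases, partners, activators and substrates. Of 117 such genes, 72 were in the table and 59 passed the filter on low values. The limma test over all genes called 0 of the 59, beside 0.119% of all genes. At an unadjusted p under 0.05 there were 8 higher and 3 lower, or 18.6% beside 10.4% of all genes. The lines did not overlap for 12 of them, 8 higher and 4 lower, or 20.3% beside 16.6% of all genes. Among these 12, SERPINB2 (0, 0 and 0.0507 in OVCAR5) passed the filter through OVCAR5R alone and MMP11 through OVCAR5 alone. MMP3 and TSPAN33 also needed their OVCAR5R libraries to pass it. No direction is read from these counts. The median log2 difference of the 59 genes was -0.07, with 24 higher and 35 lower by mean, next to -0.01 for all genes.

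RECK, a membrane-anchored MMP inhibitor, was the only gene tested of 3 further inhibitors. It read 2.36, 1.56 and 2.20 in OVCAR5 and 2.47, 4.45 and 2.57 in OVCAR5R, a narrow gap with a log2 difference of 0.43 (SE 0.34, limma adjusted p = 0.686).

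Of 19 other MMPs 4 were tested, with a median of 0.09 and extremes in MMP3 and MMP11. MMP3, the stromelysin that can activate MMP1, lies 37.6 kb from MMP1 on chromosome 11. It read 1.44, 0.0579 and 3.70 in OVCAR5 and 3.86, 9.38 and 18.8 in OVCAR5R, a log2 difference of 2.12 (SE 0.66, limma adjusted p = 0.333). Like MMP1, it was lowest in OVCAR5 replicate 2 and did not overlap between the lines, though the gap between its closest libraries was small. MMP11, stromelysin-3, read 3.45, 3.19 and 1.04 in OVCAR5 and 0.204, 0.250 and 0.914 in OVCAR5R, a log2 difference of -1.24 (SE 0.45, limma adjusted p = 0.401).

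Among 5 other ADAMs tested, with a median of 0.15, ADAM11 was highest and ADAM19 lowest. ADAM11, which lacks protease activity, read 13.7, 3.13 and 22.5 in OVCAR5 and 24.0, 39.7 and 30.9 in OVCAR5R, a log2 difference of 1.5 (SE 0.58, limma adjusted p = 0.429). ADAM19 differed by -0.45. The 4 ADAMTS enzymes tested, secreted relatives of the ADAMs, had a median of -0.09 and ran from -0.52 for ADAMTS13 to 1.03 for ADAMTS6.

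The 10 tested partners of ADAM10 and ADAM17, which carry these proteases to the surface or steer their choice of substrate, had a median of -0.28. TSPAN33, a tetraspanin that binds ADAM10, was highest at 1.42 (SE 0.46, limma adjusted p = 0.359), with 1.95, 3.68 and 0.405 in OVCAR5 and 7.88, 5.27 and 5.61 in OVCAR5R. TSPAN5, of the same tetraspanin group, was lowest at -0.60. TSPAN15, named after its values were seen, read 20.4, 106 and 14.9 in OVCAR5 and 19.5 to 30.6 in OVCAR5R. Like MMP15, it was highest in OVCAR5 replicate 2. That was not particular to these genes, since the epithelial markers EPCAM and KRT19 were highest in that library too.

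Activators of the MMPs, chiefly the plasminogen system and proprotein convertases, gave 10 tested genes with a median of 0.14. PLAT, the tissue plasminogen activator, was lowest at -0.84 (SE 0.64, limma adjusted p = 0.676). It read 640, 1114 and 559 in OVCAR5 and 1081, 413 and 154 in OVCAR5R, so the lines overlapped.

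All 5 tested genes that tether or take up TIMPs were lower in OVCAR5R by mean, as were 5975 of 11766 genes tested. The test called 0 of the 5, beside 0.119% of all genes. Their log2 differences ran from -0.03 for the integrin ITGA3 to -0.89 for the endocytic receptor LRP1, with a median of -0.30 for the list. LRP1 read 124, 46.8 and 27.9 in OVCAR5 and 27.8, 27.3 and 32.0 in OVCAR5R, so the high value was that of OVCAR5 replicate 1 alone. HSPG2, which encodes the matrix proteoglycan perlecan and is named after its values were seen, was the member of this list without overlap. This is 1 of 5 genes, or 20%, beside 16.6% of all genes tested. HSPG2 read 474, 313 and 435 in OVCAR5 and 236, 203 and 257 in OVCAR5R, a log2 difference of -0.79 (SE 0.23, limma adjusted p = 0.306).

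Substrates of ADAM10 and ADAM17 formed the largest list, with 20 genes tested and a median of -0.08. EREG, which encodes the EGFR ligand epiregulin, was lowest at -1.97 (SE 0.44, limma adjusted p = 0.232). It read 93.8, 195 and 69.9 in OVCAR5 and 15.7, 33.5 and 37.1 in OVCAR5R, without overlap. TNF was highest at 2.02 (SE 1.12, limma adjusted p = 0.571), yet its OVCAR5R libraries were split, at 0.245, 46.8 and 10.3 against 0.760 to 1.61 in OVCAR5.

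The soluble-receptor genes TNFRSF1B and IL6R, named after their values were seen, were the substrates with higher, non-overlapping levels. With EREG, they made 3 of 20 substrates without overlap, or 15%, beside 16.6% of all genes tested. TNFRSF1A, another TNF receptor of the list and also named after its values were seen, overlapped and differed by -0.05. TNFRSF1B, a TNF receptor, read 33.8, 26.8 and 54.3 in OVCAR5 and 63.2, 107 and 74.1 in OVCAR5R, a log2 difference of 1.09 (SE 0.31, limma adjusted p = 0.306). IL6R, the interleukin-6 receptor, read 35.0, 17.2 and 31.9 in OVCAR5 and 55.9, 58.8 and 61.2 in OVCAR5R, a log2 difference of 1.10 (SE 0.28, limma adjusted p = 0.293). Shedding itself, a change of protein and not of mRNA, was not measured here.

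**Figure D5:**
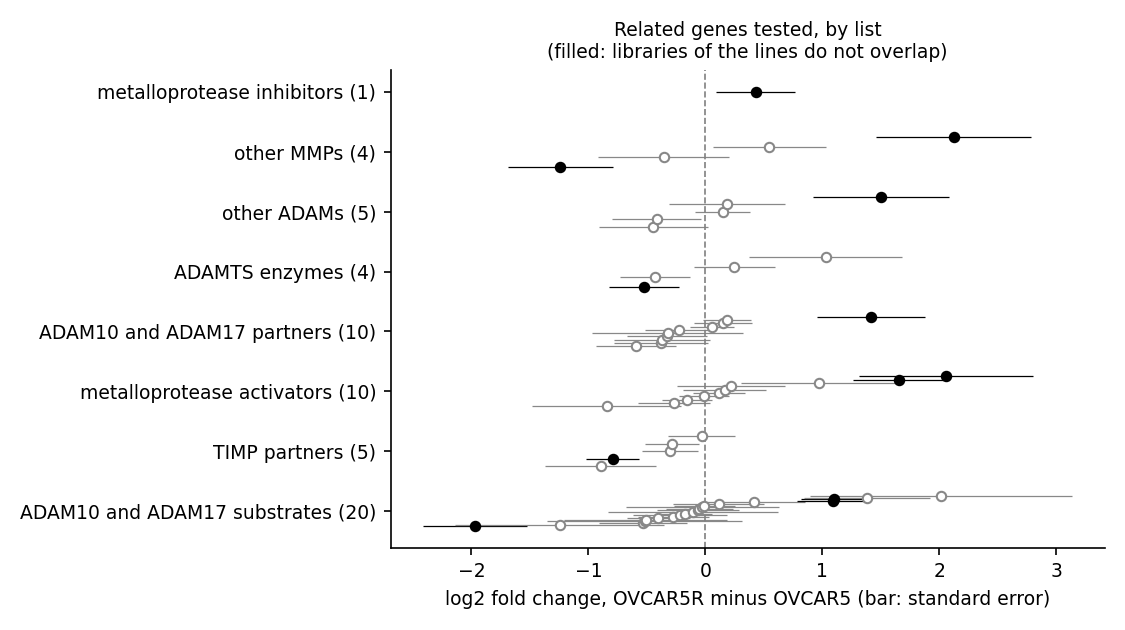
Log2 difference, OVCAR5R minus OVCAR5, of the 59 related genes tested, in rows by list with the number tested; points are genes, bars their standard errors and the dashed line 0. Points run from EREG at -1.97 to MMP3 at 2.12, and the 12 filled points are genes whose libraries do not overlap between the lines, 8 of them above 0.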

How the data were processed

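RNA-seq was performed by the authors on 3 libraries each of OVCAR5 and OVCAR5R. They deposited 1 table of normalized signal per gene on a linear scale, described in their methods as quartile normalized. The submitters' processing notes name the build hg38; the aligner, counter, strand setting and gene filter are not given in the sources used here. Of 12309 rows, 12308 were used. Low values were spaced in 1 step size per library, from which depth was estimated; since 62.1% to 65.7% of values were whole multiples of it (tolerance 0.01), the values were not treated as counts. Nothing says that the cultures were grown apart in time, so p-values measure the spread between these libraries only.

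Values were taken as log2(value + 1), so fold changes of low genes are understated. The 11766 genes that reached 1 unit in 3 or more libraries were fitted with limma 3.58.1 in R 4.3.3 (eBayes with trend, no covariate), with two-sided Benjamini-Hochberg adjusted p over all genes. Error values are SD over 3 libraries. Levels per kb used the union of exons in GENCODE 29 (99.4% of symbols matched); windows upstream of genes came from the RefSeq table, where 6 of the 10 genes were found. Figures were drawn with matplotlib 3.10.9.

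The genes and lists were chosen with earlier results of these data known. Named were the 10 genes, the tested gene with the highest and the lowest difference in each list, the 5 genes nearest to TIMP3 in profile, and its overlapping and nearest genes. 1 gene that this rule names is not reported here. The fit was tested on simulated data of 11766 genes, in which 200 were changed by about 2 on the log2 scale (mean 1.98): with each gene's own spread it called 141 of the 200 and 7 others, and with the median spread 200 and 11. Alternatives were quantile normalization, no trend, other filters, a pseudocount of 0.1, a replicate block, leaving out each library, and the longest transcript as length. The comparison with neighbours within 5 Mb was added after seeing the data.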

Additional observations from a re-analysis of the deposited data

How the results depend on the processing

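The TIMP3 difference kept its direction in all 13 alternatives, from -2.99 without OVCAR5R replicate 3 to -2.34 on the scale relative to neighbours within 5 Mb, which was chosen after seeing the data. TIMP3 was chosen by these values and its libraries do not overlap between the lines. Leaving out a library could therefore not turn its direction, and nothing is read from this. None of the 8 other genes of the set and none of the 59 related genes was called by limma under any alternative run. In the reported fit 1 of the 8 and 11 of the 59 had an unadjusted limma p under 0.05, beside 10.4% of all genes. Directions turned for 2 genes. With a library left out, MMP15 ran from -1.32 (without OVCAR5 replicate 3) to 0.58 (without OVCAR5 replicate 2), and ADAM9 from -0.60 to 0.10, with 0.03 without OVCAR5 replicate 3. ADAM9 was 0.46 relative to its neighbours. With a library left out, MMP14 ran from -1.04 to -0.09, ADAM17 from -0.47 to -0.02, ADAM10 from -0.38 to -0.09, TIMP1 from -0.22 to -0.01 and TIMP2 from 0.0045 to 0.34. MMP1 stayed between 1.49 and 2.41 and was removed by the filter at 5. The mean TIMP3 share was 8.27% in OVCAR5 with the longest transcript as length, 10.9% to 11.9% with a library left out, and 1.56% to 2.17% in OVCAR5R. Over all genes, 14 were called, 14 to 16 with other scaling, filters, pseudocount or no trend, and 0 to 29 with a library left out: 0 without OVCAR5R replicate 3 (864 at an unadjusted p under 0.05), 2, 3 and 4 without OVCAR5R replicate 2, OVCAR5 replicate 1 and OVCAR5R replicate 1, 10 without OVCAR5 replicate 3, and 29 without OVCAR5 replicate 2. With the replicate block 5 genes were called. The numbers share no stated origin and did not pair the libraries (correlation of deviations -0.00, 0.18 and -0.12 for numbers 1, 2 and 3). An exact rank test could give no call, since 3 against 3 libraries reach 0.1 at the lowest. The cause of these changes was not tested.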
